A study of Mus musculus with 10 samples.

Results

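The 9 genes described here encode the mechanosensing co-activators YAP and TAZ (Yap1 and Wwtr1), their DNA-binding partner TEAD1, 3 genes widely used as readouts of YAP and TAZ activity (Ankrd1, Ccn1 and Ccn2), and 3 stretch-sensitive ion channels (Trpv2, Trpv4 and Kcnk2). They were chosen with earlier results of these data known, and their probe sets were found by gene symbol in the platform annotation. Of the 20380 probe sets with a single symbol 14 belonged to them, and all 9 were among the 12393 genes measured. RNA came from the optic nerve head of male C57Bl/6 mice aged 6 to 8 weeks, the place where the axons of retinal ganglion cells leave the eye. In the high IOP group the right eye had been kept at an intraocular pressure of 30 mmHg for 1 h, through a micropipette in the anterior chamber, and its nerve head was taken 3 days later. The control group was the left eye, which was not operated on. Each of the 10 arrays, 5 per group, carried RNA of 2 pooled nerve heads, from 10 mice in all. Pressure, cannulation and the side of the body cannot be told apart in this design. Right and left eyes came from the same mice, so the groups share animals, but the labels do not say which pools do. Each pool is labelled as a biological replicate, and the p-values treat the 10 pools as independent.

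YAP and TAZ are transcriptional co-activators that enter the nucleus when cells are spread, stretched or on stiff matrix, and there switch on target genes through TEAD factors. The kinases of the Hippo pathway phosphorylate them and hold them in the cytoplasm, so their activity is set largely by location and phosphorylation, which an array of RNA does not measure. TRPV2, TRPV4 and the potassium channel TREK-1 (Kcnk2) open on membrane stretch or swelling, among other stimuli. In the nerve head, astrocytes and connective tissue cells carry the strain that eye pressure puts on the axons; in the mouse this region is spanned mainly by astrocytes rather than by collagenous plates.

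TEAD factors recognise the core sequence GGAATG, which reads CATTCC on the opposite strand. The RefSeq promoter windows of Ccn1 and Ankrd1 are shown (GRCm38.p6, 250 bases before to 50 after the start, 5′ to 3′ on the strand of the gene), because these are the classic TEAD targets and Ccn1 varied most of the 9 genes. Capitals mark the motif on either strand. Ccn1 lies at chr3:145649936-145650235 (minus strand) and Ankrd1 at chr19:36119795-36120094 (minus strand).
Ccn1: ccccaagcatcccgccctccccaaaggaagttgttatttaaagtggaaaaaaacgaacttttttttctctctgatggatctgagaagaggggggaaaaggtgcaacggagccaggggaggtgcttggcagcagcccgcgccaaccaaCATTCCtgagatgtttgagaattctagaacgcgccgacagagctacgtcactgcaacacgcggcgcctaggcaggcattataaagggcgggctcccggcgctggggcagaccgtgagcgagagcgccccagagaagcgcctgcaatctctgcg
Ankrd1: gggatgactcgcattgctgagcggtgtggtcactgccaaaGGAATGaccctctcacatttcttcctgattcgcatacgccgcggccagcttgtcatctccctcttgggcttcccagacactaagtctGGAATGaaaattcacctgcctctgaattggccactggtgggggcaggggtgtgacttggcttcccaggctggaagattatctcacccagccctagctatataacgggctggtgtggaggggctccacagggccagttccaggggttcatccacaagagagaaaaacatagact
The Ccn1 window held 1 motif, its first base 103 bases before the start, and the Ankrd1 window held 2, starting 210 and 123 bases before it. Windows of 7 of the 9 genes were searched, those of Ccn2 and Tead1 not being used here, and 6 of the 7 had the motif in at least 1 window, including Yap1 and Wwtr1 themselves, while the Trpv4 window had none. Of the 13 windows of these genes 7 held the motif, and the Wwtr1 windows overlap and share the same one. Of all 32851 windows 14.7% held the motif, and 16.6% of 27025 genes had it in at least 1 window. A gene with several windows had more chances of a match. A match of letters is a description and does not show binding.

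None of the 9 genes passed the test for a difference between high IOP and control nerve heads. Log2 fold changes, high IOP minus control, ran from -0.26 for Ankrd1 to 0.25 for Trpv2, 6 below 0 and 3 above, where 52.7% and 47.3% of all 12393 genes lay. Their median was -0.04, beside -0.01 over all genes. By limma with Benjamini-Hochberg adjustment over all genes, 0 of the 9 were called at an adjusted p under 0.05 (background 0%), and the lowest adjusted p among them was 0.849, which was also the lowest over all genes. At an unadjusted p under 0.05 there were 0 of 9, where 3.99% of all genes passed, a share that stood at 8.45% without high IOP replicate 3. Ankrd1 passed that unadjusted threshold without high IOP replicate 3 or without control replicate 5 (4.77% of all genes). Trpv2 passed it without high IOP replicate 4 (3.88% of all genes). Each kept the direction it had with all arrays, and none of the 9 genes passed with any other array left out. The groups overlapped in all 9 genes, and over all genes 0.629% had groups that did not overlap. These values leave limits on size: for 6 of the 9 genes the 95% interval excluded changes of 1.5-fold and more either way (76.8% of all genes), and for 8 of 9 it excluded 2-fold changes (95.5% of all genes), Ccn1 being the exception. These limits are for the brightest probe set of each gene, and one of the dimmer probe sets of Wwtr1 allowed up to 1.64-fold higher.

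**Figure D1:**
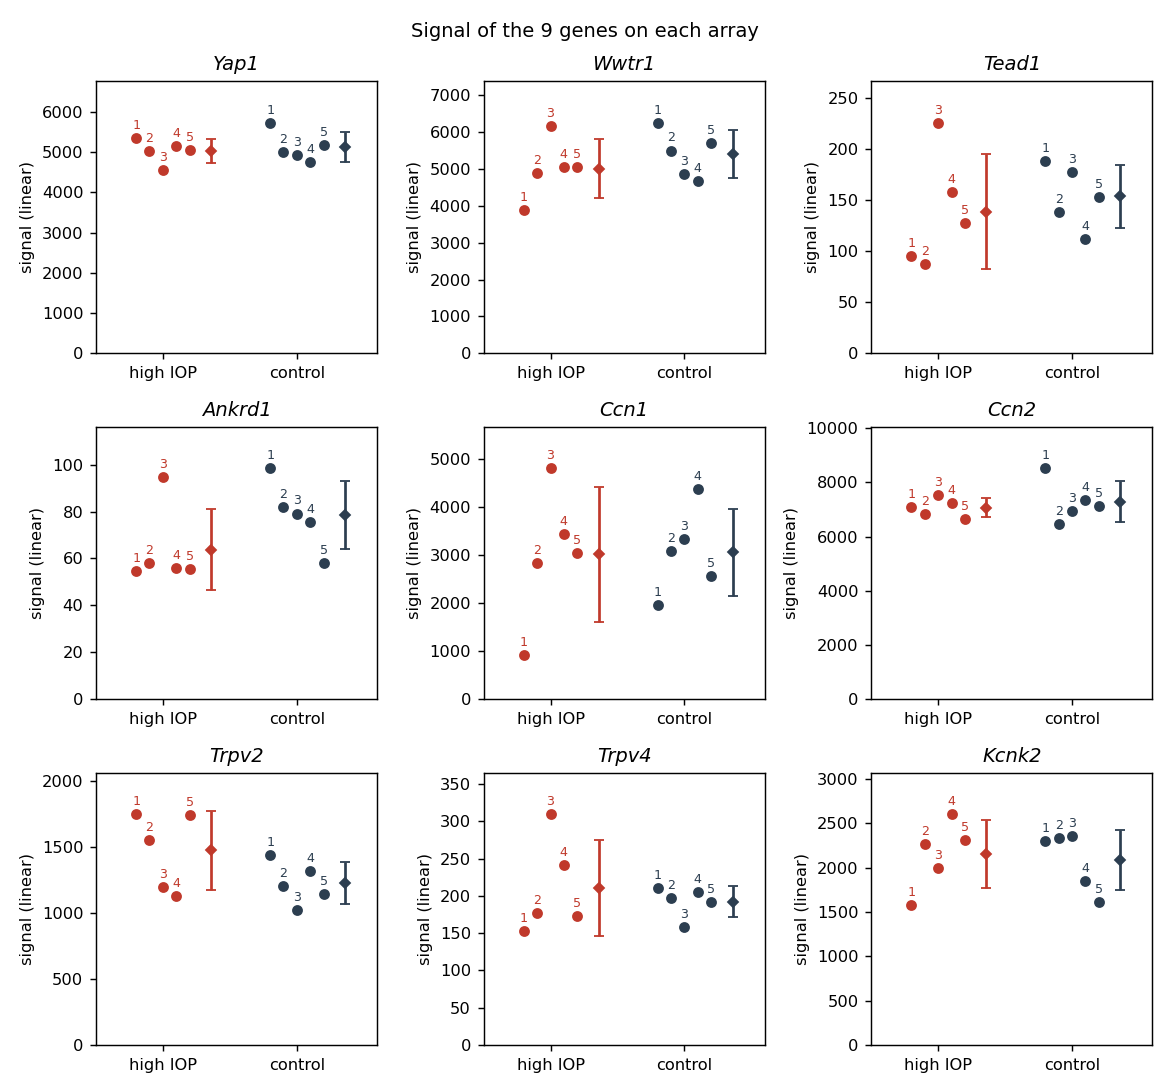
Signal of each gene on each array, on a linear scale from 0, with high IOP arrays in red on the left and control arrays in dark blue on the right. Numbers are replicate numbers, and diamonds with bars are group means and SD (n = 5). The groups overlap in every panel, and Ccn1 has the widest scatter, from 913 to 4797.

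Yap1, which encodes the co-activator YAP, had signals of 5358, 5032, 4551, 5152 and 5064 on the high IOP arrays, replicates 1 to 5, against 5736, 5016, 4940, 4748 and 5174 on the control arrays. All 10 values lay within 1.26-fold, the narrowest span of the 9 genes. The log2 fold change of Yap1 was -0.02 (95% interval -0.20 to 0.15, limma adjusted p = 0.953), a sign that turned to 0.01 and 0.0024 when the arrays were quantile normalized or set to equal medians. On this probe set the interval allows at most 1.15-fold lower and 1.11-fold higher Yap1 RNA after high IOP. A dimmer probe set of Yap1 averaged 139 ± 14.5 in high IOP and 152 ± 49.5 in control tissue (SD, n = 5), and spanned 2.57-fold over the 10 arrays. Its log2 fold change was -0.06, and its 95% interval allowed up to 1.40-fold lower and 1.28-fold higher.

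Wwtr1, which encodes TAZ, had signals of 3895, 4882, 6166, 5046 and 5051 in high IOP, against 6255, 5497, 4873, 4683 and 5712 in control nerve heads. The lowest value was that of high IOP replicate 1, and the other 4 high IOP arrays lay between 4882 and 6166, within the control range. The log2 fold change was -0.12 (interval -0.40 to 0.16, limma adjusted p = 0.854) and -0.03 without that array. The other probe sets of Wwtr1 stood at 0.17 and 0.29, and the mean over the 3 at 0.12, so no direction can be given. These other probe sets followed each other over the 10 arrays (Pearson r = 0.92, Spearman rho = 0.92) more closely than the bright one (r = 0.32 and 0.16, rho = 0.50 and 0.38).

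Tead1, the DNA-binding factor, was measured by a dim probe set, with signals of 95.3, 87.5, 226, 157 and 128 in high IOP, against 188, 138, 178, 112 and 153 in control tissue. Both the lowest and the highest arrays belonged to the high IOP group, which spanned 2.58-fold, against 1.68-fold in controls. The log2 fold change was -0.18 (interval -0.68 to 0.32, limma adjusted p = 0.867), and it ran from -0.36 without high IOP replicate 3 to -0.06 without high IOP replicate 2.

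The 3 readout genes differed in signal and in spread. Ccn1, formerly Cyr61, encodes a secreted matricellular protein that growth factors and strain induce rapidly. Its signals were 913, 2838, 4797, 3439 and 3046 in high IOP, against 1960, 3070, 3324, 4360 and 2550 in control nerve heads. The 10 arrays spanned 5.25-fold, where the median gene spanned 1.75-fold, and the residual SD on the log2 scale was 0.70, beside a median of 0.21 over all genes. Replicate 1 was the lowest array in both groups, and high IOP replicate 3 and control replicate 4 were the highest. Means were 3007 ± 1397 in high IOP and 3053 ± 899 in control tissue (SD, n = 5), a log2 fold change of -0.15 with an interval from -1.01 to 0.71 (limma adjusted p = 0.941, two-sided exact permutation p = 0.817). The sign rested on 1 array: without high IOP replicate 1 the log2 fold change was 0.23, and without high IOP replicate 3 it was -0.36.

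A second probe set of Ccn1 had signals of 338, 1303, 2087, 1375 and 1034 in high IOP, against 602, 1156, 1275, 2200 and 1066 in control tissue. The 2 probe sets rose and fell together over the 10 arrays (Pearson r = 0.97, Spearman rho = 0.89), so both showed the scatter of Ccn1. Whether they share probes was not examined. The brighter one carries the suffix x, which marks probes that can match other transcripts. The log2 fold change of the second probe set was -0.13 (interval -1.12 to 0.86).

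Ccn2, formerly Ctgf, encodes connective tissue growth factor, a secreted protein of the same family and also a TEAD target. It had signals of 7094, 6826, 7546, 7228 and 6658 in high IOP, against 8522, 6462, 6959, 7360 and 7140 in control nerve heads. The span over all arrays was 1.32-fold, and the high IOP arrays lay entirely inside the control range. Means were 7070 ± 347 and 7288 ± 765 in high IOP and control tissue (SD, n = 5), a log2 fold change of -0.04 with an interval from -0.23 to 0.15 (limma adjusted p = 0.926). The interval allows at most 1.17-fold lower and 1.11-fold higher Ccn2 RNA. Control replicate 1 was the highest array, and without it the value was 0.02.

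Ankrd1 encodes an ankyrin repeat protein of muscle sarcomeres and nuclei that responds to stretch. It was dim, with signals of 54.5, 58.1, 94.8, 56.1 and 55.5 in high IOP, against 98.5, 81.8, 79.2, 75.8 and 58.0 in control tissue. In high IOP, 4 arrays lay between 54.5 and 58.1 and replicate 3 alone at 94.8, while 4 of the 5 control arrays lay between 75.8 and 98.5. Means were 63.8 ± 17.4 in high IOP and 78.6 ± 14.5 in control nerve heads (SD, n = 5). The log2 fold change of -0.26 had an interval from -0.59 to 0.08 (limma adjusted p = 0.849, two-sided exact permutation p = 0.143), and without high IOP replicate 3 it was -0.38 (limma adjusted p = 0.559). The second probe set of Ankrd1, with mean signals of 22.8 and 18.1 in high IOP and control tissue, had the opposite sign, 0.17, and the mean over both stood at -0.04. At signals this near to the 16 added before the log, and with no detection calls used here, it is not known whether either probe set measured the transcript above background.

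**Figure D2:**
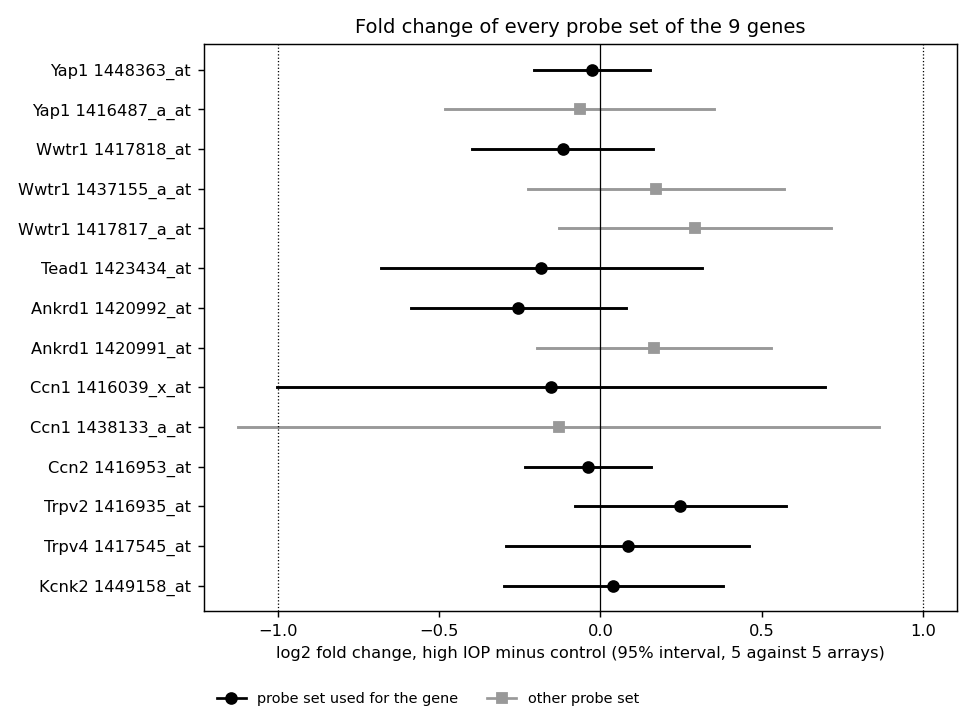
Log2 fold change of each of the 14 probe sets, high IOP minus control, with 95% intervals, from a fit with every probe set as its own row. Circles are the probe set used for the gene and squares the others. Every interval includes 0, Ccn1 has the widest intervals, and the probe sets of Wwtr1 and of Ankrd1 lie on both sides of 0.

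Of the ion channels, Trpv2 had the highest fold change of the 9 genes. TRPV2 is a calcium-permeable cation channel that responds to stretch and heat and is expressed in neurons, macrophages and muscle. Its signals were 1752, 1552, 1200, 1129 and 1749 in high IOP, against 1442, 1207, 1022, 1320 and 1149 in control nerve heads. High IOP replicates 1, 2 and 5 lay above every control array, and replicates 3 and 4 lay among the controls. Means were 1476 ± 297 in high IOP and 1228 ± 161 in control tissue (SD, n = 5), a log2 fold change of 0.25, or 1.19-fold, with an interval from -0.08 to 0.57. It did not pass the test (limma adjusted p = 0.849, two-sided exact permutation p = 0.151). With each array left out in turn it ran from 0.18 to 0.34, and under quantile normalization it was 0.28.

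Trpv4, a calcium-permeable channel opened by swelling, shear and lipid mediators, and found in astrocyte endfeet and endothelium, had signals of 153, 177, 310, 241 and 173 in high IOP, against 210, 197, 158, 205 and 191 in control tissue. Its log2 fold change was 0.08 (interval -0.29 to 0.46, limma adjusted p = 0.919) and -0.06 without high IOP replicate 3, its highest array. The high IOP arrays lay on both sides of the controls and spanned 2.02-fold, against 1.33-fold among controls.

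Kcnk2 encodes TREK-1, a background potassium channel opened by membrane tension and by polyunsaturated fatty acids. Its signals were 1582, 2264, 1995, 2602 and 2314 in high IOP, against 2295, 2336, 2351, 1844 and 1609 in control nerve heads. Both groups held low and high arrays, and the log2 fold change was 0.04 (interval -0.30 to 0.38, limma adjusted p = 0.964), with values from -0.05 to 0.15 when 1 array was left out.

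**Figure D3:**
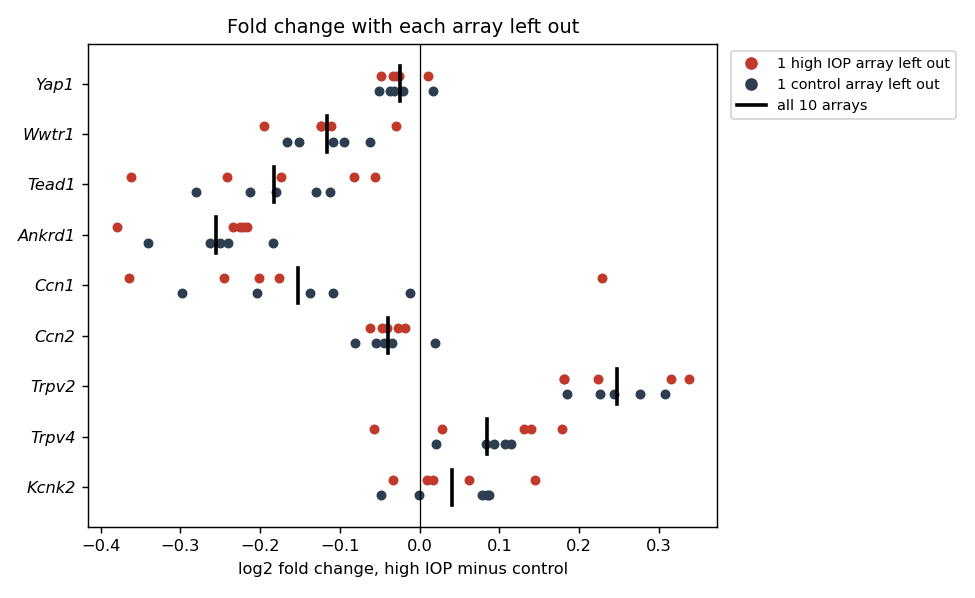
Log2 fold change of each gene, high IOP minus control, with all 10 arrays (bar) and with 1 high IOP array (red, upper points) or 1 control array (dark blue, lower points) left out. Ccn1 ranges from -0.36 to 0.23, while Trpv2 stays between 0.18 and 0.34 and Ankrd1 between -0.38 and -0.18.

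In each of the 9 genes the range over the pools of either group was wider than the difference between the group means, and some arrays were high or low in several genes. High IOP replicate 3 had the highest signal of its group for Wwtr1, Tead1, Ankrd1, Ccn1, Ccn2 and Trpv4 and the lowest for Yap1. High IOP replicate 1 had the lowest signal of its group for Wwtr1, Ankrd1, Ccn1, Trpv4 and Kcnk2 and the highest for Yap1 and Trpv2. That array stood apart from the rest of the series, correlating with the other arrays at 0.974 on average, against 0.986 to 0.989 for the rest. Its Gapdh control probes had a 3′ to 5′ ratio of 2.07, against 1.53 to 1.73 elsewhere. The same ratio of its actin control probes was 2.10, below the 2.13 of high IOP replicate 4 and above the 1.65 to 1.94 of the other arrays. Its median signal was the lowest, 414 in a range up to 475. The part of RNA quality or scaling in the values of this array was not tested.

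**Figure D4:**
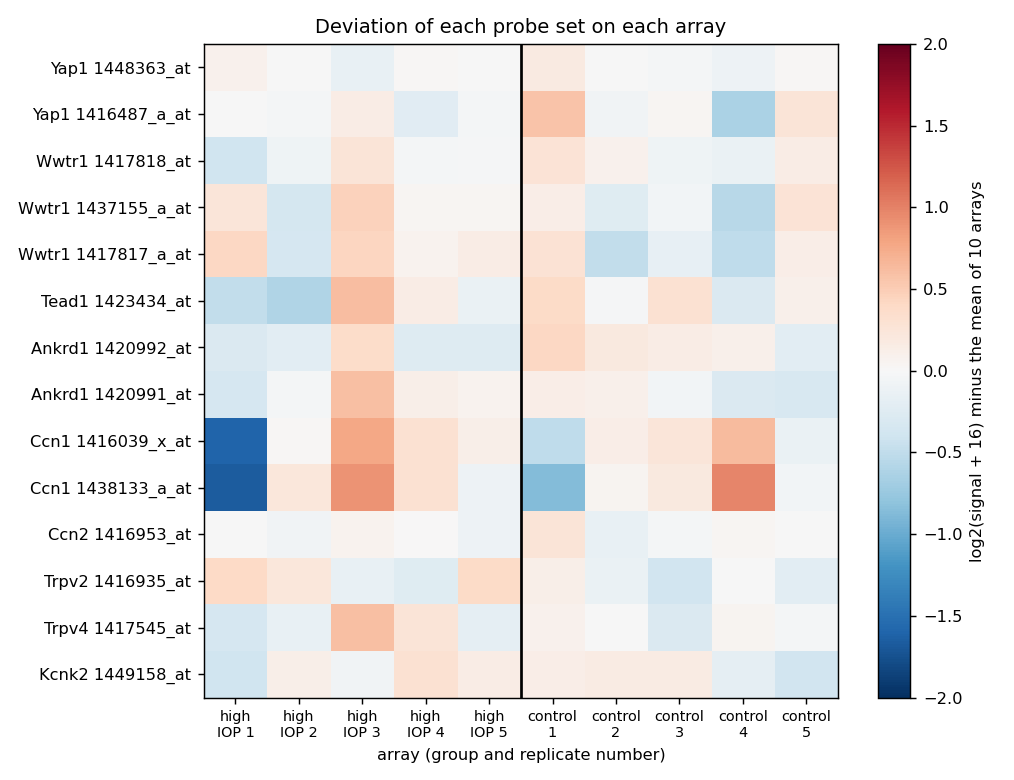
Deviation of each of the 14 probe sets on each array from its mean over the 10 arrays, on the log2(signal + 16) scale, with high IOP arrays left of the black line and control arrays right of it. Both probe sets of Ccn1 are low on replicate 1 of each group and high on high IOP replicate 3 and control replicate 4. Ccn2 and the bright probe set of Yap1 stay near 0, while the dim one of Yap1 is high on control replicate 1 and low on control replicate 4.

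Over the 36 pairs of the 9 genes, the correlation of log2 signals across the 10 arrays ran from -0.75 to 0.76, 22 pairs above 0 and 14 below. These are descriptions over 10 arrays that share scaling and tissue content, and carry no test. Wwtr1 and Tead1 were the most alike (Pearson r = 0.76, Spearman rho = 0.67), and r was 0.66 without the 2 arrays farthest from the median of Wwtr1. Here and below, Wwtr1 is its brightest probe set, whose r with its other probe sets was only 0.32 and 0.16. Yap1 and Ccn1 were the most opposed (r = -0.75, rho = -0.85, and -0.82 without the 2 arrays farthest in Yap1), and r was -0.93 and -0.92 with equal array medians or quantile normalization, settings applied to these pairs after seeing the data. The whole span of Yap1 in that relation was 1.26-fold. Among the readouts r was -0.09 for Ccn1 with Ccn2, 0.34 for Ankrd1 with Ccn1, and 0.53 for Ankrd1 with Ccn2. The median over the 36 pairs was 0.28. Without the 2 arrays farthest in Ankrd1, its r was 0.49 with Ccn1 and -0.21 with Ccn2. Without the 2 arrays farthest in Ccn1, its r with Ccn2 was -0.48. Whether the dim Ankrd1 lay above background is not known, so its pairs cannot settle whether the readouts tracked one another. All 3 values over the 10 arrays depended on the scaling. With equal array medians r was -0.60 for Ccn1 with Ccn2, 0.20 for Ankrd1 with Ccn1 and 0.27 for Ankrd1 with Ccn2, and after quantile normalization it was -0.11, 0.25 and 0.31 for the same pairs.

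Among 9226 other genes with a mean signal of at least 100, those with the pattern most like each of the 9 were picked by Pearson r over the 10 arrays. Closest to Ccn1 were Tipin (r = 0.97, rho = 0.94) and Ccdc115 (r = 0.97, rho = 0.90), and closest to Wwtr1 the interleukin receptor gene Il1r1 (r = 0.97, rho = 0.88) and Plekhf2 (r = 0.97, rho = 0.92). Closest to Tead1 were the copper transporter gene Atp7a (r = 0.96) and Smad1, a transcription factor of BMP signalling (r = 0.94), to Trpv4 Agbl5 (r = 0.96) and Tiprl (r = 0.93), and to Yap1 the nuclear import gene Ipo7 (r = 0.93) and the chaperone gene Hspa8 (r = 0.92). For Ccn2 they were Ints8 (r = 0.94) and Mgp, matrix Gla protein (r = 0.92), for Ankrd1 Ankib1 and Msantd4 (r = 0.94 each), for Trpv2 Cdca4 (r = 0.93) and Slc16a6 (r = 0.89), and for Kcnk2 Cst7 (r = 0.92) and Pkp4 (r = 0.91). Each of these values is the top of a ranking of 9226 genes over 10 arrays. All use the brightest probe set of each gene, and that of Wwtr1 followed its other probe sets only weakly. Mgp fell to r = 0.60 without the 2 arrays farthest in Ccn2.

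The rest of the pathway, taken from 5 lists of related genes, showed 0 calls by limma in any list. Of 18 measured Hippo kinases and upstream regulators 8 were higher and 10 lower in log2 fold change, with a median of -0.04 that was 0.00 after quantile normalization, beside -0.01 over all genes. Sav1, the scaffold of the Hippo kinases, stood at -0.25, Nf2, the upstream tumour suppressor merlin, at 0.15, and the kinase gene Taok1 at -0.19. The second probe set of Sav1 stood at -0.02. The other probe sets of Nf2 stood at -0.25 (limma unadjusted p = 0.0194), -0.01 and 0.00, and those of Taok1 at -0.56 (limma unadjusted p = 0.0231), -0.28 and 0.11. Of the other TEAD factors and their VGLL partners 4 were measured, and Tead4 averaged 63.1 ± 22.7 in high IOP and 89.3 ± 19.6 in control tissue (SD, n = 5), a log2 fold change of -0.45 with an interval from -0.92 to 0.03 (limma adjusted p = 0.849) and a second probe set at -0.01. Tead2 and Tead3 stood at 0.14 and 0.13, and the median of the 4 was 0.07.

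Other genes commonly used as YAP and TAZ targets were measured in 16 cases, 6 higher and 10 lower, with a median of -0.06. Igfbp3, which encodes a protein that binds insulin-like growth factors, had a log2 fold change of 0.22, the receptor tyrosine kinase gene Axl -0.15, and Fjx1 0.19, although another probe set of Fjx1 stood at -0.20. Lats2, a Hippo kinase that is also a target, and Tgfb2, a matrix-inducing cytokine, had log2 fold changes of -0.07 and -0.05. Among 3 other CCN genes the values were 0.14 for Ccn3, 0.00 for Ccn4 and 0.20 for the dim Ccn5. Lats2, Amotl2 and Ptpn14 stand on both the Hippo and the target list.

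Of 9 other mechanically gated or stretch-responsive channel genes 4 were higher and 5 lower, with a median of -0.02 that was 0.02 after quantile normalization. Panx1, which encodes the ATP-releasing channel pannexin 1, was the only gene of the 5 lists at an unadjusted p under 0.05 in the probe set used, where 2.65% of all genes were so in the higher direction. Its signals were 813, 648, 512, 484 and 541 in high IOP, against 498, 365, 498, 348 and 555 in control nerve heads, a log2 fold change of 0.39 with an interval from 0.01 to 0.77 (limma adjusted p = 0.849). High IOP replicates 1 and 2 lay above every control array and the other 3 among the controls. Pkd1, the gene of polycystin 1, stood at 0.20 and the cation channel gene Trpc1 at -0.16, with a second probe set of Trpc1 at 0.13. The 10 other channel genes of that list, Piezo1 and Piezo2 among them, were not analysed here.

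**Figure D5:**
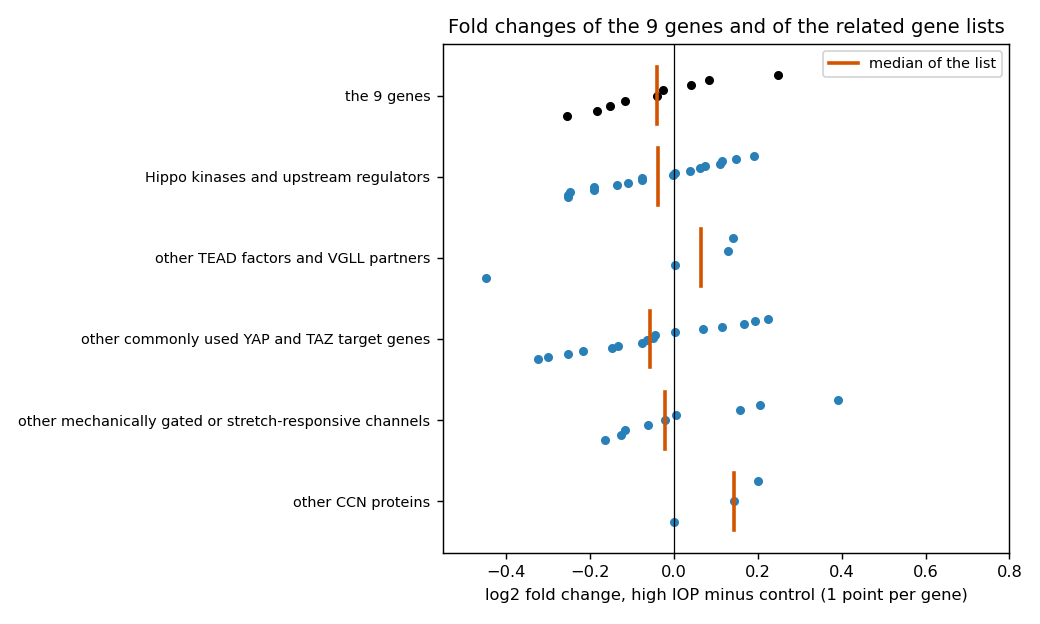
Log2 fold change, high IOP minus control, of the 9 genes (black) and of each measured gene of the 5 related lists (blue), 1 point per gene, with the median of each list as an orange bar. All points lie between -0.45 and 0.39 and the medians between -0.06 and 0.14.

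In whole nerve heads, fewer cells of a type and less RNA per cell cannot be told apart, so markers of the cells that could carry these transcripts were summed on each array. No signal on any array was at 0, the lowest being 0.69, so a signal above 0 does not show that a marker was detected. All 8 astrocyte markers of the nerve head were measured, with a summed signal of 51811 to 57603 in high IOP and 52881 to 58072 in control tissue. Endothelial markers (8 of 8) summed to 16224 to 22040 in high IOP and 14821 to 20182 in control tissue. Mural cell markers (8 of 8) summed to 24495 to 27328 in high IOP and 20928 to 31612 in control tissue. These lists overlapped between the groups, as did fibroblast markers (8 of 8), at 43904 to 49831 in high IOP and 44582 to 54812 in control tissue. Ccn2 correlated with the mural sum over the 10 arrays (r = 0.80). Both were highest on control replicate 1 and lowest on control replicate 2, and r without these 2 arrays was not computed.

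Oligodendrocyte markers (6 of 8 measured) summed to 37838 to 53652 in high IOP and 45667 to 58388 in control tissue. Over the 10 arrays Ccn1 (r = 0.66) and Kcnk2 (r = 0.67) correlated with this sum. Ccn1, Kcnk2 and the sum were all lowest on high IOP replicate 1, the array that stood apart. The correlations without that array were not computed, so no relation beyond it can be given. Trpv2 ran against the astrocyte sum (r = -0.68) and hardly with the myeloid sum (8 of 8, r = -0.13), which was 26920 to 31490 in high IOP and 28376 to 33071 in control tissue. Ankrd1, a muscle gene, ran against the skeletal muscle markers (8 of 8, r = -0.63), as did Wwtr1 (r = -0.76), Ccn2 and Tead1 (r = -0.61 each). The muscle sum was highest on high IOP replicate 1, where Wwtr1 and Ankrd1 were lowest. It was lowest on control replicate 1, where Wwtr1, Ankrd1 and Ccn2 were highest. The values of r without these arrays were not computed, so no relation beyond them can be given. The muscle markers summed to 325 to 389 in high IOP and 260 to 348 in control tissue, with mean signals of single markers from 6.58 for Ckm to 93.9 for Tnnt3. Of the 8 muscle markers 7 were higher in high IOP, with a median log2 fold change of 0.24, where 47.3% of all genes were higher. At an unadjusted p under 0.05 by limma were 1 muscle and 1 endothelial marker, both higher, and 1 myeloid marker, lower. Of all genes 3.99% passed that threshold. Of the 6 oligodendrocyte markers 0 were higher and 6 lower, with a median of -0.13, and the medians of the other marker lists lay between -0.04 and 0.03. No marker was called by limma. Pigment cell markers (7 of 8) summed to 14272 to 22399 in high IOP and 9792 to 31890 in control pools. Ccn2 also correlated with the pigment sum (r = 0.74). That sum too was highest on control replicate 1 and lowest on control replicate 2, and r without them was not computed. These correlations describe 10 arrays that share scaling, and the part of these cell types in the values of the 9 genes was not tested. They are a selection from those of the 9 genes with each marker list. Others of like size were Trpv4 with the endothelial sum (r = 0.68) and Kcnk2 with the astrocyte sum (r = 0.61).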

How the data were processed

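The authors deposited a matrix of linear intensity values, from 0.69 to 20168, with 22690 probe sets in rows and 10 arrays in columns. Per the labels' protocols, RNA of pooled nerve heads was amplified and biotin-labelled. How the signals were summarised, background-corrected and scaled is not given in the sources used here. Neither scanner files nor detection calls were at hand. Precision is limited by the number of arrays. Signals were analysed as log2(signal + 16), which understates the changes of dim genes. Control probe sets aside, 22626 remained, of which 20380 had 1 gene symbol, 691 several and 1555 none. A gene was represented by its brightest probe set on average, with no filter on dim genes. The comparison used limma 3.58.1 in R 4.3.3, with lmFit, eBayes and no covariate, and Benjamini-Hochberg adjustment over 12393 genes. Single genes were also compared over all 252 splits of the arrays by exact permutation, two-sided, where the smallest possible p is 0.00794. The fit was tested on simulated data. Named are the 9 members, up to 3 genes of smallest p from each of 5 related lists, and the 2 genes most like each member. One further gene list and one marker list are not reported here. Lats2 and Tgfb2 were added after their values were seen. The members and lists were chosen with earlier results of these data known. Promoter sequences and gene names came from RefSeq tables. Alternatives were other scalings (quantile, equal medians), averaging probe sets, dropping dim genes, a pseudocount of 1, a trended robust variance, a replicate block, and leaving out each array. Python 3.11.15 was used with SciPy 1.17.1, NumPy 2.4.6, pandas 2.3.3 and Matplotlib 3.10.9.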

Additional observations from a re-analysis of the deposited data

Results flagged for a closer look

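The brighter probe set of Ankrd1 had a signal of 94.82 on high IOP replicate 3, apart from the other 4 high IOP arrays, which lay between 54.5 and 58.1. The gap made up 0.89 of the range of the group on the log2 scale, above Dixon's critical ratio of 0.71 for 5 samples. Tead2, another TEAD factor, had a signal of 772.9 on control replicate 4, where the other 4 control arrays lay between 527 and 572. Of 58 groups of 5 arrays examined in this way 2 had such a sample, and chance gives about 1 in 20.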

How the results depend on the processing

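No gene was called under any alternative run, and the lowest adjusted p of a member was 0.559. Of 152 member values under 17 alternatives, 141 kept their sign and 11 changed it. Yap1 stood at 0.011 after quantile normalization and 0.0024 with equal array medians, and Wwtr1 at 0.12 as the mean over probe sets, where Ankrd1 stood at -0.045 in place of -0.26. Leaving out each array in turn gave ranges that crossed 0 for Yap1 (-0.051 to 0.017), Ccn1 (-0.36 to 0.23), Ccn2 (-0.081 to 0.019), Trpv4 (-0.058 to 0.18) and Kcnk2 (-0.049 to 0.15). Genes at an unadjusted p under 0.05 numbered 495 with all arrays and between 368 and 1047 with 1 left out, the highest without high IOP replicate 3. With the replicate number as a block, 454 genes were at an unadjusted p under 0.05 and 0 were called. Whether equal numbers mark pools of the same mice is not known. Deviations of same-numbered arrays correlated at -0.08 to 0.21, 2 of 5 pairs above 0.1, and other pairs at -0.196 to 0.175. The 2 highest values, 0.214 and 0.179, were of same-numbered pairs, and 2 of 5 high IOP arrays correlated best with their own number. Correlations this weak cannot settle the pairing. Ankrd1 was among the dimmest 25% of genes and had no value where those were left out. Without detection calls, the dim Ankrd1, Tead1 and Trpv4 have an unknown signal over background.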
